A study of Mus musculus with 15 samples.

Results

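mmu-miR-137-3p, mmu-miR-138-5p and mmu-miR-128-3p (below without the mouse prefix) are 3 mature miRNAs linked to the maturation of neurons. They were picked by name, as the rows of the scanner tables annotated with these 3 names, out of 1122 mouse miRNAs on the array. Each had 2 probes of 20 spots. All 3 were above background on every array of at least 1 group and so were among the 306 miRNAs tested. They are described across the 5 groups of a differentiation experiment.

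The study followed small RNA while mouse epiblast stem cells (EpiSC, pluripotent cells of the stage just after implantation) differentiated over 14 days, on 15 single-colour arrays. The groups were day 5 cells, collected before any morphogen, treated cells at day 9 and day 14, which received SHH and FGF8 from day 5 and are labelled as dopaminergic (DA) cells, and control cells at day 9 and day 14, which received no morphogens. All groups came from EpiSC of Pitx3-GFP mice, which carry a green fluorescent reporter of the dopaminergic neuron gene Pitx3, and each had 3 arrays. The labels call the material primary cells, do not mention a sort for GFP, and do not say whether replicates were separate cultures, so p-values measure the spread between these samples, which may be technical.

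MicroRNAs guide Argonaute proteins to messenger RNAs, mostly through the seed near their 5′ end, and lower the output of those messages. miR-137 is known for its part in neural progenitor proliferation and neuronal maturation, miR-138 for limiting the size of dendritic spines in rat hippocampal neurons, and miR-128 for damping the excitability of mouse neurons. SHH and FGF8 are the morphogens that pattern the ventral midbrain, where dopaminergic neurons arise.

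The mature sequences are shown because the seed sets which messages a miRNA can bind, and because the array measures these strands and not their genes. Sequences are from RefSeq (GRCm38.p6), 5′ to 3′, with the seed (bases 2 to 8) in capitals.
miR-137-3p: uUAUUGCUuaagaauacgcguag
miR-138-5p: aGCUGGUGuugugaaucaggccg
miR-128-3p: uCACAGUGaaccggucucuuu
miR-27a-3p: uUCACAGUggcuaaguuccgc
miR-27b-3p: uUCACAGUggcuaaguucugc
The 3 seeds differ from each other, and among the 881 array miRNAs with a sequence in the RefSeq table no other shares any of them. miR-27a-3p and miR-27b-3p are included because they share a run of 8 bases with miR-128-3p, which starts at base 1 in miR-128-3p and at base 2 in both miR-27 strands.

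miR-138-5p and miR-128-3p each come from a pair of genes, and the hairpins are shown, with the mature strand in capitals, to make plain that the mature strand is the same from both.
Mir137: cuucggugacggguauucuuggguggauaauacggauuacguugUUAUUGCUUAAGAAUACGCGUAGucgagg
Mir138-1: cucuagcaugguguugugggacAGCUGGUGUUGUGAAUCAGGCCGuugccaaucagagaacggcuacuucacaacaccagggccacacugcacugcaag
Mir138-2: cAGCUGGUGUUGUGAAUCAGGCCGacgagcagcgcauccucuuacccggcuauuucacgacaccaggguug
Mir128-1: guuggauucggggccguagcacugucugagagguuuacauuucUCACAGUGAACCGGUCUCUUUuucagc
Mir128-2: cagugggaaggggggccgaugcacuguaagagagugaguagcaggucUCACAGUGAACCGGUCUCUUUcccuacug
Mir137 lies at chr3:118433857-118433929 (plus strand), with no gene of the RefSeq table spanning it. Mir138-1 is at chr9:122682876-122682974 (plus strand, no spanning gene), and Mir138-2 is at chr8:94324311-94324381 (plus strand), within the span of the nucleoporin gene Nup93. Mir128-1 is at chr1:128202361-128202430 (plus strand), within R3hdm1, and Mir128-2 is at chr9:112118636-112118711 (minus strand), within Arpp21, each on the strand of its host gene. A signal for miR-138-5p or miR-128-3p therefore cannot be assigned to one of its genes. The strands from the opposite arms of these hairpins (miR-137-5p, miR-138-1-3p, miR-138-2-3p, miR-128-1-5p and miR-128-2-5p) were above background on 0 of 15 arrays.

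Levels are given as the scaled signal: the log2 of the background-subtracted probe signal divided by the array's 75th percentile, so that 0 is that percentile and the floor is -4.27. The percentile itself ran from 149 to 337 intensity units, 238 to 333 mouse miRNAs were above background per array, and 0 spots were saturated. Replicates correlated at 0.980 to 0.998 (Pearson, computed over the 306 tested miRNAs, which do not count as replicates). The arrays lie on 2 slides: day 5, treated day 9 and treated day 14 replicates 1 and 2 on slide 1, and treated day 14 replicate 3 with all control arrays on slide 2. At day 9, treatment and slide therefore coincide, and at day 14 slide 2 holds 1 treated and 3 control arrays. The comparisons of control cells with day 5 also lie wholly between the slides, whereas treated day 9 and day 5 share slide 1. Each test below is limma's, fitted over all 5 groups, with Benjamini-Hochberg adjustment across the 306 miRNAs and a threshold of 0.05 on the adjusted p.

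In control cells, all 3 miRNAs were higher at day 14 than at day 9, as were 31.4% of the 306 tested, and at day 14 all 3 were lower in treated than in control cells, as were 14.4%. They differed in when they appeared. miR-128-3p was above background in all groups, miR-137-3p was above background on every control array at day 9, and miR-138-5p was above background at day 14 only. The members' signals across the 15 arrays correlated at 0.85 (miR-137-3p with miR-138-5p), 0.83 (miR-137-3p with miR-128-3p) and 0.91 (miR-138-5p with miR-128-3p). These are Pearson coefficients over 15 arrays that share 5 groups and a scaling, given as a description. miR-138-5p lay at the floor on all day 5 and day 9 arrays, so its coefficients largely reflect the contrast of those arrays with day 14.

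**Figure D1:**
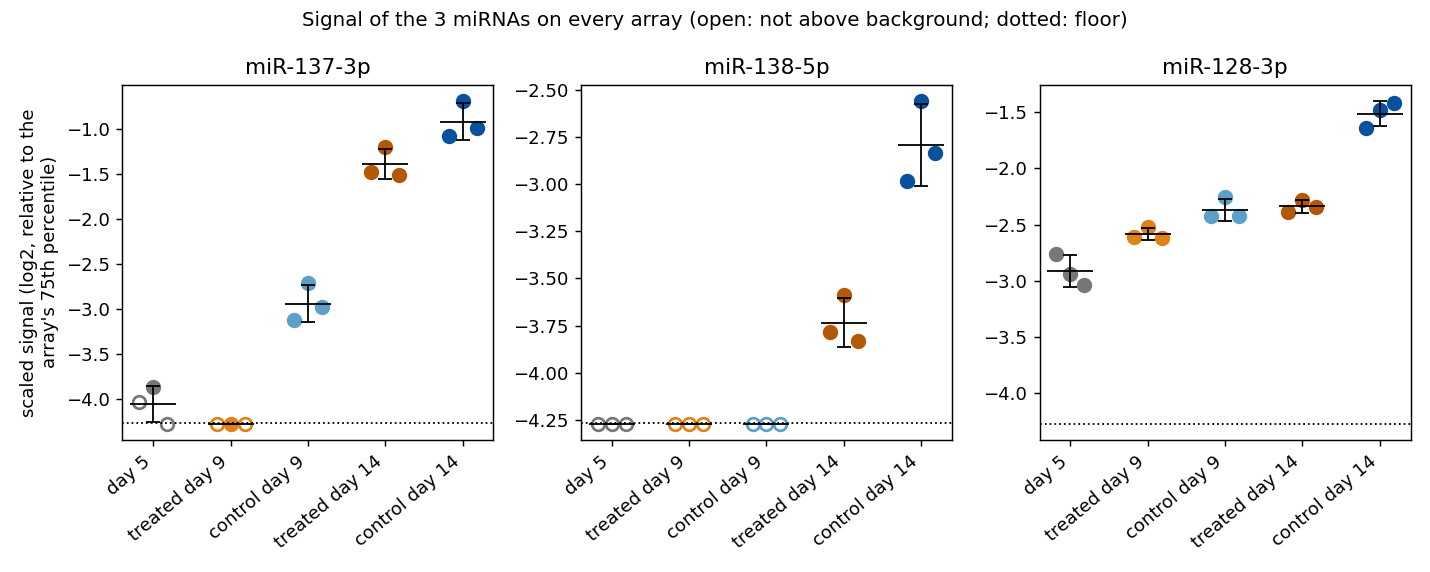
Scaled signal (log2) of the 3 miRNAs on each of the 15 arrays by group, with the group mean and SD (n = 3), each panel on its own axis. Each point is an array, and an open point is an array where the miRNA was not above background. miR-138-5p sits at the floor of -4.27 on all day 5 and day 9 arrays, and the 3 control day 14 arrays lie above the 3 treated ones in each panel.

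miR-137-3p was barely measurable at first. At day 5 its scaled signal was -4.03, -3.87 and -4.27, with 1 of 3 arrays above background. At day 9 it was at the floor of -4.27 on all 3 treated arrays, 1 of which counted as above background through the second probe alone, and at -3.12, -2.71 and -2.98 on the control arrays, all above background. At day 14 it was at -1.47, -1.19 and -1.50 in treated cells and at -1.08, -0.69 and -0.99 in control cells.

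The treated and control arrays did not overlap at either day, which held for 71.2% of the 306 tested miRNAs at day 9 and 55.9% at day 14. From low to high, the group means ran treated day 9 (-4.27), day 5 (-4.06 ± 0.20), control day 9 (-2.94 ± 0.21), treated day 14 (-1.39 ± 0.17) and control day 14 (-0.92 ± 0.21; SD, n = 3 each). Treated day 9 and day 5 overlapped, and the other neighbours in that order did not.

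Treated cells had less miR-137-3p than control cells at both days. The log2 difference, treated minus control, was -1.33 at day 9 (SE 0.13, adjusted p = 2.13e-06, limma), with treated cells at the floor. It was -0.47 at day 14 (SE 0.13, adjusted p = 0.00915, limma). The treated day 9 group at the floor has an SD of 0, so the SEs and p-values of miR-137-3p are likely too small. With a floor 4 times lower the day 14 difference had an SE of 0.14 (adjusted p = 0.0119, limma). Of the 306 miRNAs, 15% were called lower in treated cells at day 9 (55.6% called in either direction) and 14.4% at day 14 (53.3% in either direction). Since the treated day 9 arrays lay at the floor, the floor sets the size of the day 9 difference, which was -1.62 with a floor 4 times lower. The interaction of treatment and day (the day 14 difference less that at day 9) was 0.86, was -0.47 with a floor 4 times higher, where both groups lay at the floor at day 9, and was 1.15 with a floor 4 times lower. It therefore gives neither a size nor a sign for miR-137-3p. Of the 306 miRNAs, 32.7% were called for the interaction, 16.7% higher and 16% lower.

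The day 14 difference in miR-137-3p was sensitive to the scaling. Before scaling, its signal was 114, 133 and 97.1 intensity units on the treated arrays and 134, 134 and 136 on the control arrays, so that 1 treated array nearly reached the controls. Scaling by the 75th percentile over all probes gave a log2 difference of -0.84 in place of -0.47. Within slide 2, where the lone treated array is assumed to vary like the other groups, it was -0.59 (adjusted p = 0.102, limma), and with slide as a block it was -0.59 (adjusted p = 0.0315). At day 9 the slide block, which rests on the treated day 14 arrays as the one group on both slides, gave -1.50 (adjusted p = 0.000731).

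Over time, miR-137-3p moved late in treated cells. Treated day 9 minus day 5 was -0.21 (SE 0.13, adjusted p = 0.196, limma), whereas control day 9 minus day 5 was 1.12 (SE 0.13, adjusted p = 6.83e-06). The control comparison lies wholly between the slides, and with slide as a block it was 1.29 (adjusted p = 0.00138, limma). Of the 306 miRNAs, 58.8% were called for treated day 9 minus day 5 (37.6% higher, 21.2% lower) and likewise 58.8% for control day 9 minus day 5 (23.9% higher, 35% lower). Their groups did not overlap for 61.4% in the treated comparison and 58.2% in the control one. With a floor 4 times lower, the treated difference was -0.49 (adjusted p = 0.00813). Between day 9 and day 14 the miRNA rose in both arms. In treated cells the log2 difference was 2.88 (adjusted p = 7.62e-10), a value set by the floor, which was 0.88 with a floor 4 times higher and 3.17 with a floor 4 times lower. In control cells, above background at both days, it was 2.02 (adjusted p = 2.2e-08). That value was 1.35 with a floor 4 times higher and stayed at 2.02 with a floor 4 times lower. For treated day 14 minus treated day 9, 66% of the miRNAs were called (35.3% higher, 30.7% lower) and 74.8% had groups that did not overlap, and for control day 14 minus control day 9 these were 54.2% (31.4% higher, 22.9% lower) and 58.2%. Against day 5 the rise at day 14 was 2.67 in treated cells (adjusted p = 3.47e-10) and 3.14 in control cells (adjusted p = 5.28e-11). These sizes depend on the floor. With a floor 4 times higher they were 0.88 in treated and 1.35 in control cells. With a floor 4 times lower they were 2.67 and 3.15. For treated day 14 minus day 5, 71.9% of the 306 miRNAs were called (47.1% higher, 24.8% lower) and 68% did not overlap, and for control day 14 minus day 5 these were 68.6% (34.3% higher and 34.3% lower) and 65%.

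miR-138-5p came above background last. Its signal at day 5 was 3.58, 9.26 and 3.18 intensity units. At day 9 it was 5.40, 9.43 and 6.41 in treated cells and 6.82, 10.3 and 10.4 in control cells, and 0 of these 9 arrays counted as above background. No difference between those groups is given for that reason.

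At day 14 miR-138-5p was above background on all 6 arrays. Its scaled signal was -3.78, -3.59 and -3.83 in treated cells and -2.99, -2.56 and -2.83 in control cells. The treated arrays all lay below the control arrays, also before scaling, where they had 22.9, 25.3 and 19.3 against 35.6, 36.4 and 37.7 intensity units. On the scaled signal, treated and control arrays at day 14 did not overlap for 55.9% of the 306 tested miRNAs. Treated day 14 averaged -3.74 ± 0.13 and control day 14 -2.79 ± 0.22 (SD, n = 3 each), above the other groups at the floor, which have no order among themselves. The log2 difference was -0.94 (SE 0.09, 95% confidence interval -1.15 to -0.74, adjusted p = 2.18e-06, limma). The groups at the floor have an SD of 0 and lower the spread shared by all groups. This SE, interval and p are therefore likely too small. Within slide 2, with a lone treated array, the difference was -1.04.

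Against the arrays below background, the rise of miR-138-5p is a lower bound. The p-values printed with the bounds are for the fitted difference from the floor, and the bounds themselves were not tested. Treated day 14 cells had at least 1.29-fold more than treated day 9 cells (adjusted p = 0.000182, limma), and control day 14 cells at least 2.62-fold more than control day 9 cells (adjusted p = 1.68e-08). Against day 5 the bounds were 1.13-fold in treated cells (adjusted p = 0.00016) and 2.17-fold in control cells (adjusted p = 3.98e-09). The bounds for treated cells are close to 1, and without day 5 replicate 2, or with normexp background correction, median scaling or the mean of both probes, the bound against day 5 fell below 1, which gives no fold.

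The second miR-138-5p probe read 15.1, 16.8 and 14.0 intensity units on the treated arrays of day 14 and 21.1, 20.4 and 21.0 on the control arrays, so the treated arrays were again the lower ones. By that probe treated minus control at day 14 was -0.64 (adjusted p = 1.58e-05, limma), and the rise in treated cells after day 9 was not called (adjusted p = 0.762). On the scaled signal, treated day 14 replicates 1 and 3 lay at the floor by this probe, and replicate 3 had 40% of its spots above background. The floor therefore affects the size of both values, and the p of the day 14 difference is likely too small. One control day 9 array also held an outlier spot of the first probe, at 1850 intensity units where the next brightest of its 20 spots read 10.2. Leaving outlier spots out, as here, that array averaged 6.82 units, and with them 99.0. With outlier spots kept on all arrays the day 14 difference was -0.97 (adjusted p = 0.196), and the rises from day 9 were not called either.

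**Figure D2:**
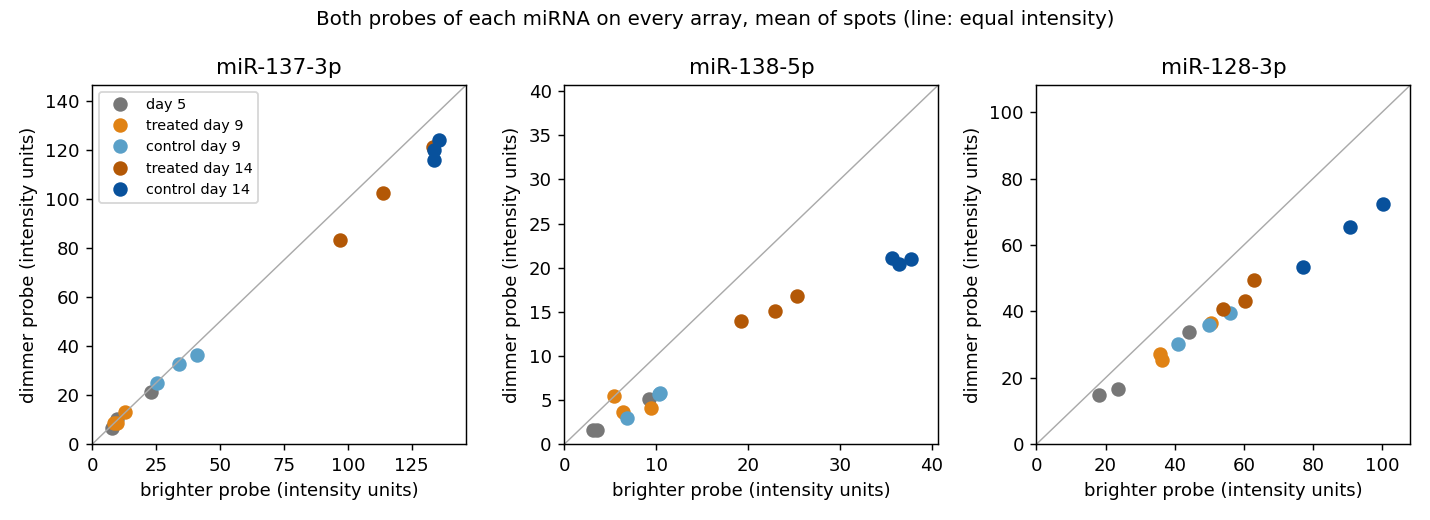
Signal in intensity units, before scaling, of the second probe (vertical) against the first, brighter probe (horizontal) of each miRNA, with one point per array coloured by group and a line of equal intensity. For miR-138-5p and miR-128-3p the 3 treated day 14 arrays lie below the 3 control day 14 arrays on both probes, and for miR-137-3p 1 treated array lies among the controls on the second probe (121 against 116 to 124 units).

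miR-128-3p was above background on all 15 arrays, with replicate SDs of 0.05 to 0.14. Its scaled signal was -2.76, -2.94 and -3.04 at day 5. At day 9 it was -2.61, -2.52 and -2.62 in treated cells and -2.43, -2.25 and -2.42 in control cells. At day 14 it was -2.39, -2.28 and -2.35 in treated cells and -1.64, -1.48 and -1.42 in control cells.

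From low to high, the group means ran day 5 (-2.91 ± 0.14), treated day 9 (-2.58 ± 0.05), control day 9 (-2.37 ± 0.10), treated day 14 (-2.34 ± 0.06) and control day 14 (-1.51 ± 0.11; SD, n = 3 each). Treated day 14 and control day 9 overlapped, with means 0.03 apart. The other neighbours did not overlap. Treated day 9 and day 5 did not overlap for 61.4% of the 306 tested miRNAs. For treated and control cells this held for 71.2% at day 9 and 55.9% at day 14.

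The treatment difference in miR-128-3p was larger at day 14. Treated minus control was -0.21 at day 9 (SE 0.08, adjusted p = 0.0456, limma) and -0.82 at day 14 (SE 0.08, 95% confidence interval -1.01 to -0.64, adjusted p = 3.14e-06). The second probe gave -0.75 at day 14 (adjusted p = 5e-06), and the arrays of slide 2 gave -0.83 (adjusted p = 0.0062). The day 9 difference was not called without any 1 of its 6 arrays (-0.25 to -0.16, adjusted p 0.0524 to 0.178) or with slide as a block (-0.23, adjusted p = 0.359). Scaling over all probes made it -0.81.

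The interaction of treatment and day was -0.61 for miR-128-3p (95% confidence interval -0.87 to -0.35, adjusted p = 0.00184, limma). It was -0.39 (adjusted p = 0.103) when scaled over all probes and -0.21 (adjusted p = 0.236) after quantile normalization.

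miR-128-3p increased with time in both arms, by unequal amounts. Between day 5 and day 9 it rose by 0.33 in treated cells (adjusted p = 0.00387, limma) and by 0.55 in control cells (adjusted p = 8.19e-05). The control comparison lies wholly between the slides, and with slide as a block it was 0.56 (adjusted p = 0.0155, limma). The early rise in treated cells was not called after scaling over all probes (0.11, adjusted p = 0.477), quantile normalization (0.14, adjusted p = 0.186) or median scaling (0.21, adjusted p = 0.126). Between day 9 and day 14 it rose by 0.24 in treated cells (adjusted p = 0.0209) and by 0.85 in control cells (adjusted p = 1e-06). The later rise in treated cells was not called without treated day 9 replicate 1 (adjusted p = 0.0593), treated day 9 replicate 3 (0.0645) or treated day 14 replicate 2 (0.0708). It was 0.04 (adjusted p = 0.815) after scaling by the median.

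**Figure D3:**
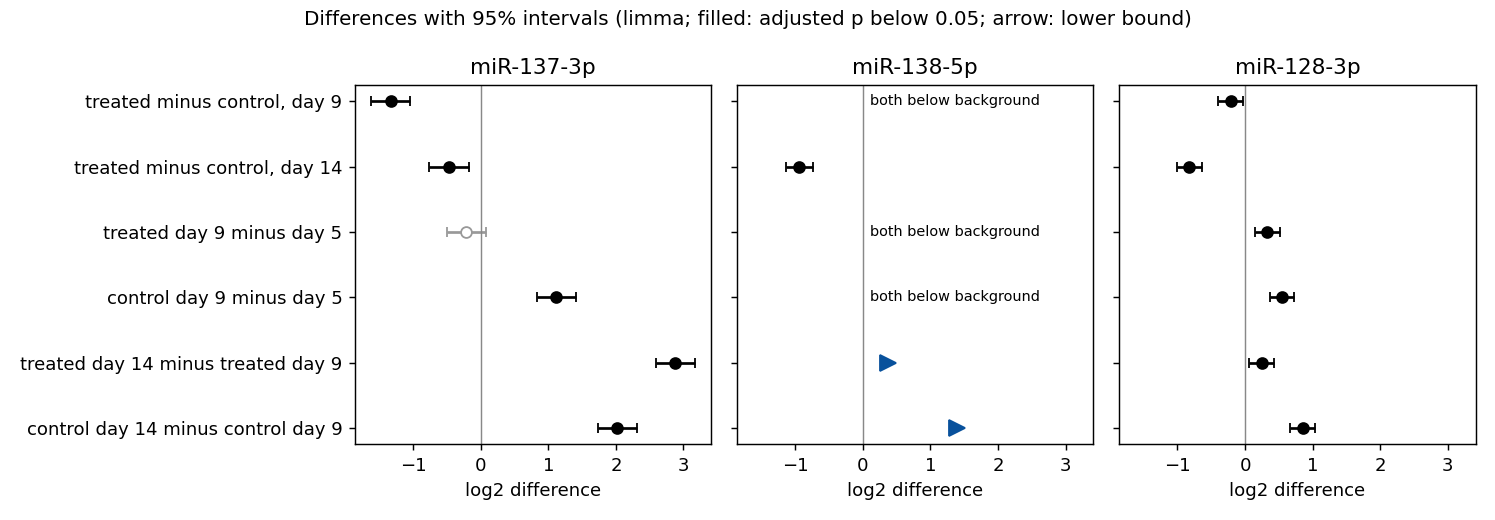
Log2 difference between groups (limma) for the 3 miRNAs, with 95% confidence intervals, for treated minus control at each day and for the comparisons between days. Arrows mark lower bounds, and open points values that were not called. Every treated minus control value is below 0, from -1.33 for miR-137-3p at day 9 to -0.21 for miR-128-3p at day 9.

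These differences stand against a distribution that was itself off 0. The median treated minus control difference of the 306 miRNAs was 0.25 at day 9 and 0.21 at day 14, with 124 called higher (40.5%) and 46 lower at day 9 and 119 higher (38.9%) and 44 lower at day 14. Scaling over all probes moved the medians to -0.25 and -0.08, with 41 called higher and 121 lower at day 9 and 37 higher and 77 lower at day 14. After quantile normalization 65 were called higher and 88 lower at day 9 and 72 and 66 at day 14, and after median scaling 71 and 85 at day 9 and 76 and 64 at day 14. Less the median of all tested miRNAs, miR-137-3p stood at -1.60 to -1.44 at day 9 and at -0.77 to -0.68 at day 14 over these 4 scalings. On the same footing miR-138-5p stood at -1.28 to -1.15 at day 14, and miR-128-3p at -0.72 to -0.47 at day 9 and -1.12 to -0.93 at day 14. The members lay below the median under each scaling.

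A list of 28 other neuronal miRNAs gave the wider setting, of which 27 were on the array and 22 were tested. Among all 306 tested miRNAs, 14.4% were called lower in treated cells at day 14 and 38.9% higher. Of the 22, 15 were called lower at day 14 and 4 higher, with a median log2 difference of -0.39 against 0.21 for all tested miRNAs. The lower ones included miR-129-1-3p by -1.78 (SE 0.09, adjusted p = 1.69e-09, limma) and miR-129-5p by -1.52 (SE 0.09, adjusted p = 1.06e-08). Both had groups wholly at the floor, with an SD of 0, so these SEs are likely too small. The higher ones included miR-218-5p, known from motor neurons, by 1.27 (SE 0.10, adjusted p = 2.96e-07), and miR-212-3p, which neuronal activity induces, by 1.23 (SE 0.26, adjusted p = 0.00143).

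At day 9 the neuronal list was mixed. Of the 17 measured in both groups, 8 were called higher in treated cells and 5 lower, with a median of 0.11 against 0.25 for all tested miRNAs. miR-212-3p stood at 2.42 (SE 0.26, adjusted p = 4.19e-06, limma), its cluster partner miR-132-3p at 2.27 (SE 0.12, adjusted p = 3.49e-09) and miR-129-2-3p at 1.32 (SE 0.15, adjusted p = 5.78e-06). miR-9-3p, from a miRNA of neural progenitors and neurons, stood at -1.03 (SE 0.13, adjusted p = 1.5e-05). Of the 5 others, 2 were below background in both groups and 3 in 1 group. Of those 3, 2 were called lower in treated cells. Over all 22, 8 were called higher and 7 lower, with a median of 0. Among all 306 tested miRNAs, 40.5% were called higher in treated cells at day 9 and 15% lower.

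**Figure D4:**
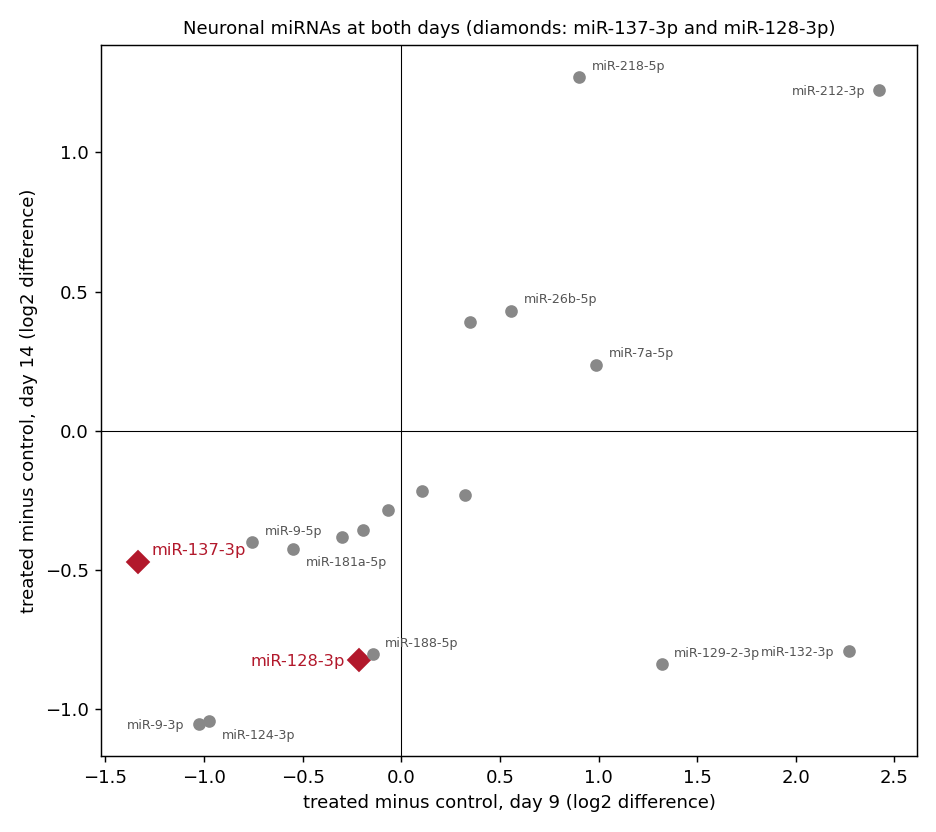
Treated minus control log2 difference at day 9 (horizontal) and day 14 (vertical) for miR-137-3p and miR-128-3p (diamonds) and the 17 other neuronal miRNAs measured in all 4 groups (grey). Both diamonds lie in the lower left, as do miR-124-3p, miR-9-3p and miR-9-5p, whereas miR-132-3p is at 2.27 at day 9 and -0.79 at day 14.

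Markers of other cell types moved alongside. The 3 neuron markers (miR-124-3p, miR-9-5p and miR-9-3p) were above background on every array, day 5 included. Their summed scaled signal, on a linear scale, was 3.80 to 4.07 at day 5. At day 9 it was 7.52 to 7.82 in treated and 13.35 to 14.97 in control cells, and at day 14 it was 14.5 to 17.0 in treated and 23.3 to 27.6 in control cells. The neuron markers were thus lower in treated cells at both days, as were the members, and their part in the members' differences was not tested. In a bulk sample, fewer cells of a type and less RNA per cell cannot be told apart.

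The 10 miRNAs of the miR-302 and miR-290 clusters that mark pluripotent cells were each above background on some array at day 5, where their sum was 2.40 to 3.38. It was 0.64 to 0.73 in treated and 0.52 to 0.59 in control cells at day 9, and 0.33 to 0.43 in treated and 0.34 to 0.40 in control cells at day 14. For the 3 glia markers the sum was 3.10 to 3.63 at day 5. At day 9 it was 4.77 to 5.06 in treated and 1.74 to 2.12 in control cells. At day 14 it was 2.25 to 2.96 in treated and 1.57 to 1.62 in control cells. Of these 3 markers, 2 were tested, and miR-219-5p, with group means of 0.54 to 2.26 on the log2 scale, carried nearly all of the sum. miR-338-3p was lower in treated cells at day 14, at -3.31 against -2.90 in control cells (difference -0.41, adjusted p = 0.00293, limma), and miR-338-5p was at the floor in both at day 9 and day 14. The sum of 6 mesenchyme and smooth muscle markers was 0.48 to 0.71 at day 5. At day 9 it was 1.58 to 1.78 in treated and 0.72 to 0.80 in control cells. At day 14 it was 1.02 to 1.12 in treated and 0.59 to 0.64 in control cells. Of those 6, 3 were above background on some array and 2 were tested. miR-21-5p, at 0.59 in treated and -0.46 in control cells at day 9 and -0.09 in treated and -0.77 in control cells at day 14, carried most of the sum, while miR-143-3p, miR-145-5p and miR-214-3p were above background on 0 arrays. Markers of striated muscle, of blood and endothelium, and of other epithelium and endoderm were above background on 0 arrays.

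miR-27a-3p and miR-27b-3p, whose shared run with miR-128-3p is printed above, went the other way. miR-27a-3p had a scaled signal of -1.71 ± 0.07 in treated and -4.19 ± 0.06 in control cells at day 9, and of -2.42 ± 0.09 in treated and -4.21 ± 0.03 in control cells at day 14 (SD, n = 3 each). Control cells were above background on 2 of 3 arrays at each day. The treated minus control difference was 2.48 at day 9 (SE 0.08, adjusted p = 1.62e-11, limma) and 1.79 at day 14 (SE 0.08, adjusted p = 1.05e-09). miR-27b-3p differed by 1.05 at day 9 (SE 0.10, adjusted p = 1.83e-06) and by 0.81 at day 14 (SE 0.10, adjusted p = 2.35e-05).

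**Figure D5:**
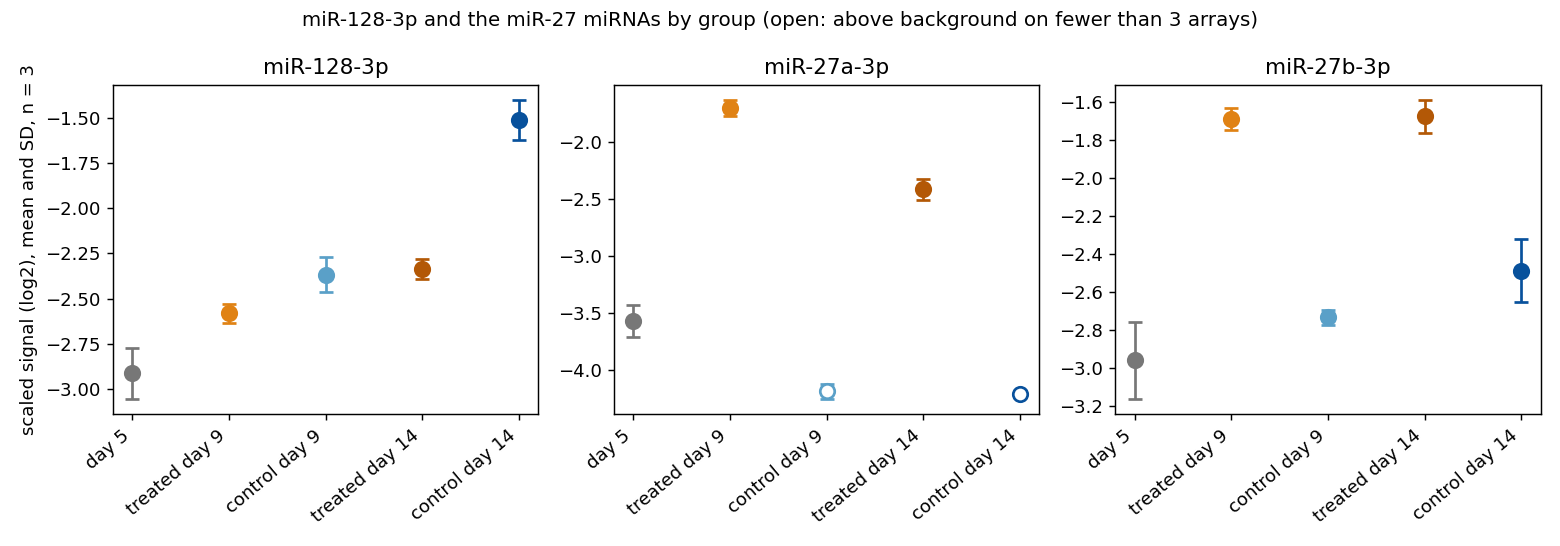
Scaled signal (log2) of miR-128-3p, miR-27a-3p and miR-27b-3p by group, as the mean with SD of 3 arrays, each panel on its own axis. Open points mark groups above background on fewer than 3 arrays. At both days the treated mean lies below the control mean for miR-128-3p and above it for both miR-27 strands.

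The tested miRNAs whose scaled signal was most like each member's across the 15 arrays were found by Pearson correlation, as a description. For miR-137-3p they were miR-3096b-5p (0.97), miR-1224-5p (0.96) and let-7b-5p (0.96). For miR-138-5p they were miR-326-3p (0.99), miR-5099 (0.96) and miR-129-5p (0.96). Of these, miR-326-3p and miR-129-5p shared its late appearance: miR-326-3p was at -3.89 ± 0.09 in treated and -3.19 ± 0.18 in control cells at day 14, and miR-129-5p at -4.14 ± 0.10 in treated and -2.62 ± 0.21 in control cells (SD, n = 3 each). Both had group means at or within 0.01 of the floor before that.

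For miR-128-3p they were miR-129-1-3p (0.96), the neuronal miR-124-3p (0.95) and miR-488-3p (0.94). miR-124-3p was at 1.05 ± 0.07 at day 5, 1.33 ± 0.02 in treated and 2.30 ± 0.04 in control cells at day 9, and 2.26 ± 0.08 in treated and 3.30 ± 0.10 in control cells at day 14 (SD, n = 3 each). As with miR-128-3p, its mean in treated day 14 cells was close to that in control day 9 cells.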

How the data were processed

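The deposited scanner tables, written by Feature Extraction 11.0.1.1 per the file headers, give spot signals in units of intensity (Cy3). The deposited flags for spots above background and for outlier spots are values of another kind (other). The deposited value table, also intensity, is linear. Except in treated day 14 replicate 2 (0.369%), its values lay within 0.1% of the mean over all spots, outliers included, for 73.3% to 83.8% of probes. Its column medians ran from -0.02 to 0.70. In it, treated day 14 replicate 2 repeats replicate 1 (86.0% of probes within 0.1%), so it served only as an alternative, without that column. The submitters' processing notes name limma 3.20.9 with no role.

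Non-outlier spots of a probe were averaged, and each array was scaled to the 75th percentile of the 353 probes detected on all 15 arrays. A probe was taken as detected with at least 50% of its spots flagged above background. Signals under a shared floor were set to it before taking log2. A group wholly at the floor therefore has an SD of 0, which lowers the SE that limma gives that miRNA. The brightest probe stood for its miRNA. The 306 miRNAs detected on every array of some group entered limma 3.58.1 (R 4.3.3, all 5 groups, 10 residual and 3.06 prior degrees of freedom), which was tested on simulated data first. A group with 0 arrays above background has only a bound, set per array at the lowest detected signal, or the floor where that was higher. Arrays have no read depth, and 3 per group limit the precision.

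The members and lists were chosen with earlier results of these data known. The text names the members, their other arms, the miR-27 strands, the 3 most similar miRNAs per member and the 4 largest differences of the neuronal list per day. Replicate numbers were not treated as pairs in the main fit. Deviations of same-numbered arrays correlated at -0.57 to 0.53, which with 3 arrays per group cannot decide whether they pair. Alternatives covered background correction, scaling, floor, filter, probe, slide, replicates and the value table. Figures were made with Python 3.11.15 (matplotlib 3.10.9).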

Additional observations from a re-analysis of the deposited data

Results flagged for a closer look

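For 2 of the 3 miRNAs the interaction of treatment and day was called in limma under the main settings. For miR-137-3p the treated minus control difference at day 14 less that at day 9 was 0.86 (adjusted p = 0.00405), with treated cells at the floor at day 9. It turned to -0.47 with a floor 4 times higher, so it gives neither a size nor a sign. For miR-128-3p the interaction was -0.61 (adjusted p = 0.00184). It was not called when scaled over all probes (-0.39, adjusted p = 0.103) or after quantile normalization (-0.21, adjusted p = 0.236). Of the 306 tested miRNAs, 32.7% were called for this interaction. The day 9 comparison lies wholly between the slides, so slide and treatment cannot be told apart there.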

How the results depend on the processing

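For the 23 differences with a value, 337 of the values recomputed under alternatives that keep all replicates had the same direction and the same side of the threshold, 27 kept the direction and were no longer called, 1 became called and 1 reversed. For the bounds of miR-138-5p these counts follow the fitted difference from the floor. Bounds that fell below 1-fold are therefore not counted as reversed. Normexp background correction (on spot medians, since the files hold no spot means) left miR-128-3p at -0.18 for treated minus control at day 9 and at 0.17 for treated day 14 minus treated day 9. Scaling over all probes left its interaction at -0.39 and treated day 9 minus day 5 at 0.11, and quantile normalization left these at -0.21 and 0.14. Median scaling left miR-128-3p at 0.21 for treated day 9 minus day 5, 0.037 for treated day 14 minus treated day 9 and 0.25 for treated day 14 minus day 5. A floor 4 times higher reversed the miR-137-3p interaction to -0.47, put miR-128-3p at -0.0052 for treated minus control at day 9 and at 0.0052 for control day 9 minus day 5, and left 11 other differences without a value, all by raising dim values to the floor. A floor 4 times lower left miR-128-3p at -0.21 for treated minus control at day 9 and put miR-137-3p at -0.49 for treated day 9 minus day 5.

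Slide as a block left miR-128-3p at -0.23 for treated minus control at day 9, slide 1 alone left its treated day 14 minus treated day 9 at 0.25, and slide 2 alone left miR-137-3p at -0.59 for treated minus control at day 14. A replicate block left miR-128-3p at -0.21 for treated minus control at day 9 and changed no other call. The deposited value table left miR-138-5p at -1.04 for treated minus control at day 14 and miR-128-3p at 0.20 for treated day 14 minus treated day 9. Its bounds for miR-138-5p, as log2 of the at-least fold, were 0.31 for treated day 14 against treated day 9, 0.44 for control day 14 against control day 9 and 0.11 for treated day 14 against day 5. Added after seeing the data, keeping outlier spots left miR-138-5p at -0.97 for treated minus control at day 14, with bounds of 0.38, 0.44 and 0.18 in the same order. The second probe, also added later, put the bounds for treated day 14 miR-138-5p at -0.14 against treated day 9 and -0.33 against day 5, which give no fold. Where no construction is named, the cause was not tested.

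Leaving out 1 array at a time, miR-128-3p ran from -0.25 to -0.16 for treated minus control at day 9, called in 0 of 6 cases, and from 0.21 to 0.27 for treated day 14 minus treated day 9, called in 3 of 6. The remaining 141 such values kept their call. Counts of called miRNAs moved by over 1.5 times with slide as a block (75 in place of 170 for treated minus control at day 9, 107 in place of 163 at day 14, 98 in place of 180 for control day 9 minus day 5) and with slide 2 alone (103 in place of 163). With the higher floor, which left 205 miRNAs to test, they were 102 and 100 for treated minus control at day 9 and day 14, 113 for control day 9 minus day 5, 104 for control day 14 minus control day 9, and 139 and 135 for treated and control day 14 minus day 5, in place of 170, 163, 180, 166, 220 and 210. The limits are the dim signals of miR-138-5p and early miR-137-3p, and the slides, which cannot be told apart from treatment at day 9. Nor can slide be told apart from time where control cells are compared with day 5.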
